A study of Homo sapiens with 12 samples.

Results

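The proteasome genes were taken by symbol from the count table, as every gene named PSM with a letter from A to G and a number, without PSMB8, PSMB9 and PSMB10. The rule found 47 rows with 45 symbols among 57773 genes. Of these symbols, 16 encode subunits of the core particle, 17 encode subunits of the regulatory particle, and 12 encode assembly chaperones, activators or an inhibitor. PSMA1 and PSMA2 have 2 rows each that overlap in the genome, the second with 75.5 to 84.7% and 102 to 105% of the count of the first, so the rows of a pair are not independent. The filter on low counts was passed by 45 rows. PSMA8 and PSMB11, the testis and thymus forms of core subunits, had no count in vehicle libraries and at most 0.034 and 0.109 CPM (counts scaled to library size) in any library, and were not tested.

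RNA was sequenced from PANC-1, an established human line of pancreatic carcinoma cells at a passage below 30, after 24 h with chaetocin and MLN8237 together, with 30 nM chaetocin, with 90 nM MLN8237 or with vehicle (DMSO), in 3 libraries each. The combination held both compounds at these same doses, and its treatment label writes MLN3237, read here as MLN8237 because the treatment protocol names that compound. Chaetocin is a fungal metabolite known to inhibit the histone methyltransferase SUV39H1 and thioredoxin reductase. MLN8237 (alisertib) inhibits the mitotic kinase Aurora A.

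The proteasome degrades proteins that carry ubiquitin chains. Its core particle is a barrel of alpha rings, which gate the entry, and beta rings, in which PSMB5, PSMB6 and PSMB7 carry the proteolytic sites. The regulatory particle caps the barrel with a base, whose ATPases (PSMC genes) unfold the substrate, and a lid, whose subunit PSMD14 removes the ubiquitin. Proteasome genes are known to be transcribed together when proteasome activity falls, through the transcription factor NRF1 (NFE2L1), and NRF2 (NFE2L2) can induce some of them through antioxidant response elements.

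Summed gene counts were 49439795 to 63747510 per library. The leading principal component (59.95% of the variance) placed the libraries with chaetocin apart from those without it. On the next (14.62%), every treated library numbered 3 had a negative score (-28.1 with both compounds, -32.2 with chaetocin, -82.7 with MLN8237), and all others scored 3.31 to 34.8. The epithelial markers KRT8, KRT18, KRT19 and EPCAM summed to 1841 to 2169 CPM with both compounds, 2242 to 2411 with chaetocin, 4331 to 5114 with MLN8237 and 4030 to 4628 with vehicle, and 4 of 4 were lower with both compounds and with chaetocin. The endothelial markers VWF and CDH5 and the immune markers PTPRC and CD3E had no count in vehicle libraries. The immune marker CD68, by contrast, had 165 to 228 CPM with both compounds, 163 to 229 CPM with chaetocin and 153 to 179 CPM with vehicle and was called in neither comparison. The fibroblast markers COL1A1, PDGFRB and DCN summed to 31.9 to 47.4 CPM with both compounds, 53.6 to 61.6 with chaetocin, 52.6 to 60.5 with MLN8237 and 61.9 to 79.3 with vehicle, and COL1A1 fell with both compounds (-0.85 ± 0.137, edgeR adjusted p = 0.000412). With chaetocin present PTPRC reached 0.903 CPM and VWF 4.08 CPM, and both rose. Whether the marker shift has a part in the values below was not tested. In bulk RNA, fewer cells of a kind and less RNA per cell cannot be told apart.

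Promoter windows in the RefSeq table (GRCh38.p14, 250 bases before to 50 bases after a gene's start) were matched for 39 of the 45 symbols, 47 windows in all. The following 200 bases before the start are shown because these genes carry the calls described below: PSMB5, PSMC2, PSMC3, PSMD5 and PSME1 were lower with both compounds, and PSMG2 was higher with chaetocin. Each runs 5′ to 3′ on the gene's strand, and capitals mark the core of the antioxidant response element or the CCAAT box. PSMB5 and PSMG2 have 2 windows each, of which 1 is shown.
PSMB5 (chr14:23035221-23035420, minus strand): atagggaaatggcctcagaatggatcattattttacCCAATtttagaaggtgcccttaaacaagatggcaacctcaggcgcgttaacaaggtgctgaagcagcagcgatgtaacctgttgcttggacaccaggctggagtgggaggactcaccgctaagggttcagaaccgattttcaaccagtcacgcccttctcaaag
PSMC2 (chr7:103347443-103347642, plus strand): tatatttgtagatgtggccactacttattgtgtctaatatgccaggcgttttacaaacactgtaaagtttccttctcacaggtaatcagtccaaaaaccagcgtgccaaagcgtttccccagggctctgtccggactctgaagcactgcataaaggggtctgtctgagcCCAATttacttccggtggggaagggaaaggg
PSMC3 (chr11:47426440-47426639, minus strand): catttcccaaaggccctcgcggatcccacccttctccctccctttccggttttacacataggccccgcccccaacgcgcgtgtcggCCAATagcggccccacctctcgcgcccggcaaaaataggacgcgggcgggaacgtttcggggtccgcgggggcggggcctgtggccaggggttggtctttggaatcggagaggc
PSMD5 (chr9:120842923-120843122, minus strand): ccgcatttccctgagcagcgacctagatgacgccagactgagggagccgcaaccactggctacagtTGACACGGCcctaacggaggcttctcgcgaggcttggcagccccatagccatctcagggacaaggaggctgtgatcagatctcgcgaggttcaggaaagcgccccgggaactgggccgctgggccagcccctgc
PSME1 (chr14:24135994-24136193, plus strand): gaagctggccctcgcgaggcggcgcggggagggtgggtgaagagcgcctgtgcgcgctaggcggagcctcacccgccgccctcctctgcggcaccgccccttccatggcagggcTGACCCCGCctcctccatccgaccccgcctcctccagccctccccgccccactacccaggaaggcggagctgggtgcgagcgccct
PSMG2 (chr18:12658538-12658737, plus strand): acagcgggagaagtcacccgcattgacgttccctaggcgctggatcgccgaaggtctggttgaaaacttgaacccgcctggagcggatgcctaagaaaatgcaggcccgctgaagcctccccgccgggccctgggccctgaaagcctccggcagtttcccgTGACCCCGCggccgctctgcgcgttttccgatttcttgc
The core of the antioxidant response element (TGACNNNGC, both strands) was found in 14 of the 47 windows (29.8%) and in 13.3% of all 35116 windows of that length. It lay in windows of PSMC4, PSMD5 and PSME1, which fell with both compounds, of PSMG2, which rose with chaetocin, and of 10 genes called in neither comparison (PSMA4, PSMB3, PSMC5, PSMD1, PSMD3, PSMD9, PSMD12, PSME2, PSME4 and PSMG1). By particle it was found in 2 of 16 core windows and 5 of 18 regulatory windows. CCAAT (both strands) was found in 19 member windows (40.4%) and in 34.6% of all windows, among them PSMB2, PSMB5, PSMC2 and PSMC3, which fell with both compounds, and 15 that did not, such as PSMA2, PSMA3, PSMC5 and PSMD14. The AP-1 site TGANTCA, which can overlap the response element, was found in 3 member windows (6.38%) against 7.71% of all, and the heat shock element in 0 against 0.49%. A match is a match of letters, and its use in these cells was not measured.

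Levels per gene length are given in the RPKM values that the authors deposited (reads scaled to gene length and library size). In vehicle cells PSMC4, an ATPase of the base, stood at 1089 ± 66.6 RPKM (SD, n = 3), rank 35 of all genes. No other member exceeded the 178 ± 10.3 RPKM of the shorter PSMA1 row (ENSG00000256206). The longer PSMA1 row (ENSG00000129084) had 69.8 ± 4.06 RPKM, so the length assigned to a gene moves this scale.

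Among genes of the proteolytic sites, PSMB6 (caspase-like site) had 107 ± 2.95 RPKM, PSMB5 (chymotrypsin-like site) 88.5 ± 6.10 and PSMB7 (trypsin-like site) 84.3 ± 4.32 in vehicle cells. PSMB5 and PSMB7 differed by less than the SD of PSMB5. The other beta genes had between 64.1 ± 5.03 RPKM (PSMB3) and 148 ± 11.9 RPKM (PSMB4), and the alpha genes outside the doubled rows between 20.5 ± 2.68 RPKM (PSMA6) and 144 ± 10.8 RPKM (PSMA7).

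The regulatory particle was less even. Its ATPase genes other than PSMC4 had 14.1 ± 0.868 RPKM (PSMC6) to 86.3 ± 1.68 RPKM (PSMC3). The base scaffold gene PSMD2 had 131 ± 1.56 RPKM, and the lid genes ranged from 7.97 ± 0.498 RPKM (PSMD6) to 103 ± 3.99 RPKM (PSMD8). Of the core assembly chaperones, PSMG1 had 23.0 ± 1.87 RPKM and PSMG4, which overlaps SLC22A23 and TUBB2B in the table, 1.60 ± 0.0471 RPKM, the lowest of the tested members.

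**Figure D1:**
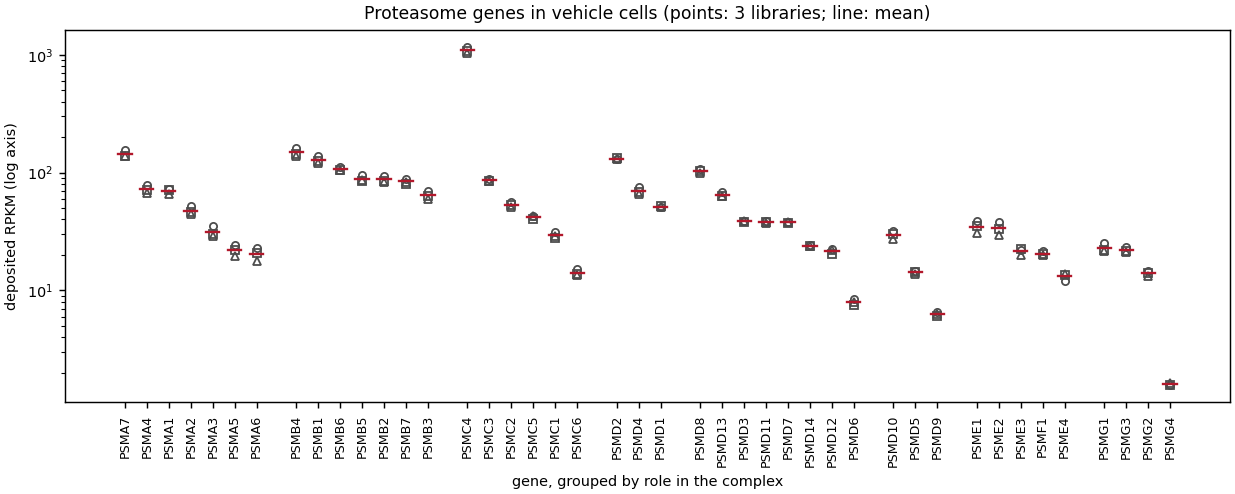
Deposited RPKM of the 43 tested proteasome symbols in vehicle cells (vertical log axis), grouped by role on the horizontal axis, with points for the 3 libraries and a line for their mean. PSMC4 stands alone at 1089 RPKM, PSMG4 is lowest at 1.60 RPKM, and the 3 libraries lie close together for each gene.

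The combination was compared with vehicle to ask what both compounds together do to these transcripts. A minority of proteasome genes fell and 0 of 45 rose. The 10 that fell included the beta subunits PSMB2, PSMB5 and PSMB6 and the ATPases PSMC2, PSMC3 and PSMC4. The rest were the base assembly chaperone PSMD5, the activator PSME1, the inhibitor PSMF1 and the core assembly chaperone PSMG4. Falls were modest, from -0.29 for PSMC4 to -0.74 for PSMB6 on the log2 scale. By role, 3 of 7 beta genes and 3 of 6 ATPase genes fell, against 0 of 9 alpha rows, 0 of 3 base scaffold and receptor genes and 0 of 8 lid genes. This split changed with the libraries left out, as given below.

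These calls (edgeR quasi-likelihood test, adjusted p under 0.05) covered 22.2% of the tested members, when 38.5% of all 22831 tested genes were called in this comparison, 20.1% higher and 18.3% lower. The share of members that fell was thus near the 18.3% of all genes. Among the 9392 genes at or above the lowest member's mean CPM, 41.7% were called, 1314 higher and 2607 lower. The median log2 fold change was -0.18 over core rows, -0.13 over regulatory genes, -0.10 over those 9392 genes of like level and 0.02 over all genes tested. The combination libraries lay entirely below vehicle for 19 members and entirely above it for 2, when groups did not overlap for 54.8% of all genes (27.5% above, 27.4% below).

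PSMB6 (ENSG00000142507, hg19 chromosome 17, 4699439 to 4701790) had 76.9, 105 and 107 CPM with both compounds, against 165, 157 and 161 CPM with vehicle. Its group means were 96.4 ± 16.9 and 161 ± 4.31 CPM (SD, n = 3 each), giving a fitted log2 fold change with its SE of -0.74 ± 0.213 (edgeR adjusted p = 0.0149). The groups did not overlap, and combination replicate 1 was lowest. PSMB5 (ENSG00000100804, chromosome 14, 23485752 to 23504439), the subunit that the drug bortezomib binds, had 88.1, 119 and 115 CPM with both compounds and 177, 156 and 161 CPM with vehicle. Its log2 fold change was -0.62 ± 0.152 (edgeR adjusted p = 0.00605), again with every combination library below every vehicle library. The PSMB5 row overlaps a row named SNORA73.

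PSMB2, a beta subunit without a proteolytic site, had 163, 199 and 207 CPM with both compounds and 266, 242 and 239 CPM with vehicle, a log2 fold change of -0.39 ± 0.106 (edgeR adjusted p = 0.0103). PSMB7, by contrast, had 182, 182 and 247 CPM with both compounds and 201, 181 and 193 CPM with vehicle, and its groups overlapped (log2 fold change 0.09 ± 0.159, edgeR adjusted p = 0.695). The proteolytic genes therefore stood in another proportion inside each library, which no scaling between libraries affects. The ratio of PSMB6 to PSMB7 counts was 0.478 ± 0.0871 with both compounds and 0.841 ± 0.0225 with vehicle, and that of PSMB5 to PSMB7 was 0.534 ± 0.104 and 0.860 ± 0.0222 (SD, n = 3 each). These ratios were chosen after the values were seen and carry no test.

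No alpha row passed. PSMA6 had 118, 127 and 127 CPM with both compounds and 156, 142 and 121 CPM with vehicle, and PSMA4 226, 280 and 260 CPM against 314, 288 and 274 CPM. Both genes overlapped between the groups, with log2 fold changes of -0.17 ± 0.108 and -0.19 ± 0.140 (edgeR adjusted p = 0.241 and 0.305).

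Of the ATPase genes, PSMC3 (ENSG00000165916, chromosome 11, 47440320 to 47447993) had 123, 152 and 152 CPM with both compounds and 208, 200 and 205 CPM with vehicle, a log2 fold change of -0.52 ± 0.134 (edgeR adjusted p = 0.00794). PSMC2 had 141, 155 and 166 CPM with both compounds and 209, 197 and 191 CPM with vehicle (-0.37 ± 0.0915, edgeR adjusted p = 0.00652), and it overlaps DNAJC2 and SLC26A5. PSMC4, far the most abundant member, had 2050, 2242 and 2435 CPM with both compounds and 2912, 2695 and 2616 CPM with vehicle. All 3 genes separated the groups without overlap, PSMC4 by the smallest change (-0.29 ± 0.0938, edgeR adjusted p = 0.0265). The other ATPase genes PSMC1, PSMC5 and PSMC6 had fitted values of -0.03, -0.12 and -0.08 and were not called. The ratio of PSMC2 to PSMC1 counts was 1.51 ± 0.0501 with both compounds and 1.91 ± 0.0897 with vehicle, and of PSMC3 to PSMC5 0.784 ± 0.0409 and 1.03 ± 0.0273, again as descriptions.

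In the rest of the regulatory particle no gene was called. PSMD14, the deubiquitinase of the lid, had 204, 219 and 255 CPM with both compounds and 198, 191 and 194 CPM with vehicle. It had the highest fitted value of any member, 0.22 ± 0.0996, without passing (edgeR adjusted p = 0.103, unadjusted p = 0.0480), although all its combination libraries lay above vehicle. The lid gene PSMD13 had 246, 267 and 285 CPM with both compounds and 340, 319 and 318 CPM with vehicle (-0.29 ± 0.116, edgeR adjusted p = 0.0634). Neither overlapped between the groups. PSMD1 had 255, 254 and 260 CPM with both compounds and 276, 280 and 282 CPM with vehicle. PSMD2 had 818, 772 and 885 CPM with both compounds and 750.1, 760.0 and 754 CPM with vehicle. These scaffold genes separated the groups in opposite directions, with small fitted values of -0.12 ± 0.0713 and 0.13 ± 0.0805 (edgeR adjusted p = 0.189 and 0.232).

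Among assembly and accessory genes, PSMG4 had 8.29, 12.05 and 11.3 CPM with both compounds and 17.3, 17.0 and 18.3 CPM with vehicle, a log2 fold change of -0.74 ± 0.174 (edgeR adjusted p = 0.00488). PSME1, a subunit of the interferon-inducible activator ring, had 37.2, 48.1 and 44.5 CPM with both compounds and 72.2, 65.8 and 57.8 CPM with vehicle (-0.59 ± 0.146, edgeR adjusted p = 0.00614). Its partner PSME2 had a value of -0.33 ± 0.146 and did not pass (edgeR adjusted p = 0.0880). PSMD5 had 46.0, 51.7 and 39.7 CPM with both compounds and 68.5, 66.3 and 64.5 CPM with vehicle (-0.54 ± 0.158, edgeR adjusted p = 0.0168). PSMF1 had 74.4, 88.0 and 82.4 CPM with both compounds and 110, 104 and 105 CPM with vehicle (-0.38 ± 0.0882, edgeR adjusted p = 0.00431). All 4 genes that fell separated the groups without overlap. PSME1 overlaps EMC9, PSMD5 overlaps PSMD5-AS1 and PSMF1 overlaps ACTG1P3, so reads may be shared with those rows. PSMD10 (gankyrin), another base assembly chaperone, had 66.2, 77.7 and 75.6 CPM with both compounds and 82.1, 77.4 and 71.9 CPM with vehicle, and overlapped (-0.08 ± 0.0963, edgeR adjusted p = 0.571).

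The number of falls depended on single libraries. It was 5 without combination replicate 1, the library with the lowest core sum, and 20 with the treated libraries numbered 3 left out. The split by role moved too. Without combination replicate 1, PSMB5 and PSMC2 were the only beta and ATPase genes called lower. With the treated libraries numbered 3 left out, the falls included a PSMA2 row, PSMD4 of the base, and PSMD3, PSMD6, PSMD8 and PSMD13 of the lid. With library totals in place of TMM factors, which moved the median of all genes by 0.14, 8 members were lower and PSMG2, PSMD2, PSMD12 and PSMD14 were called higher.

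**Figure D2:**
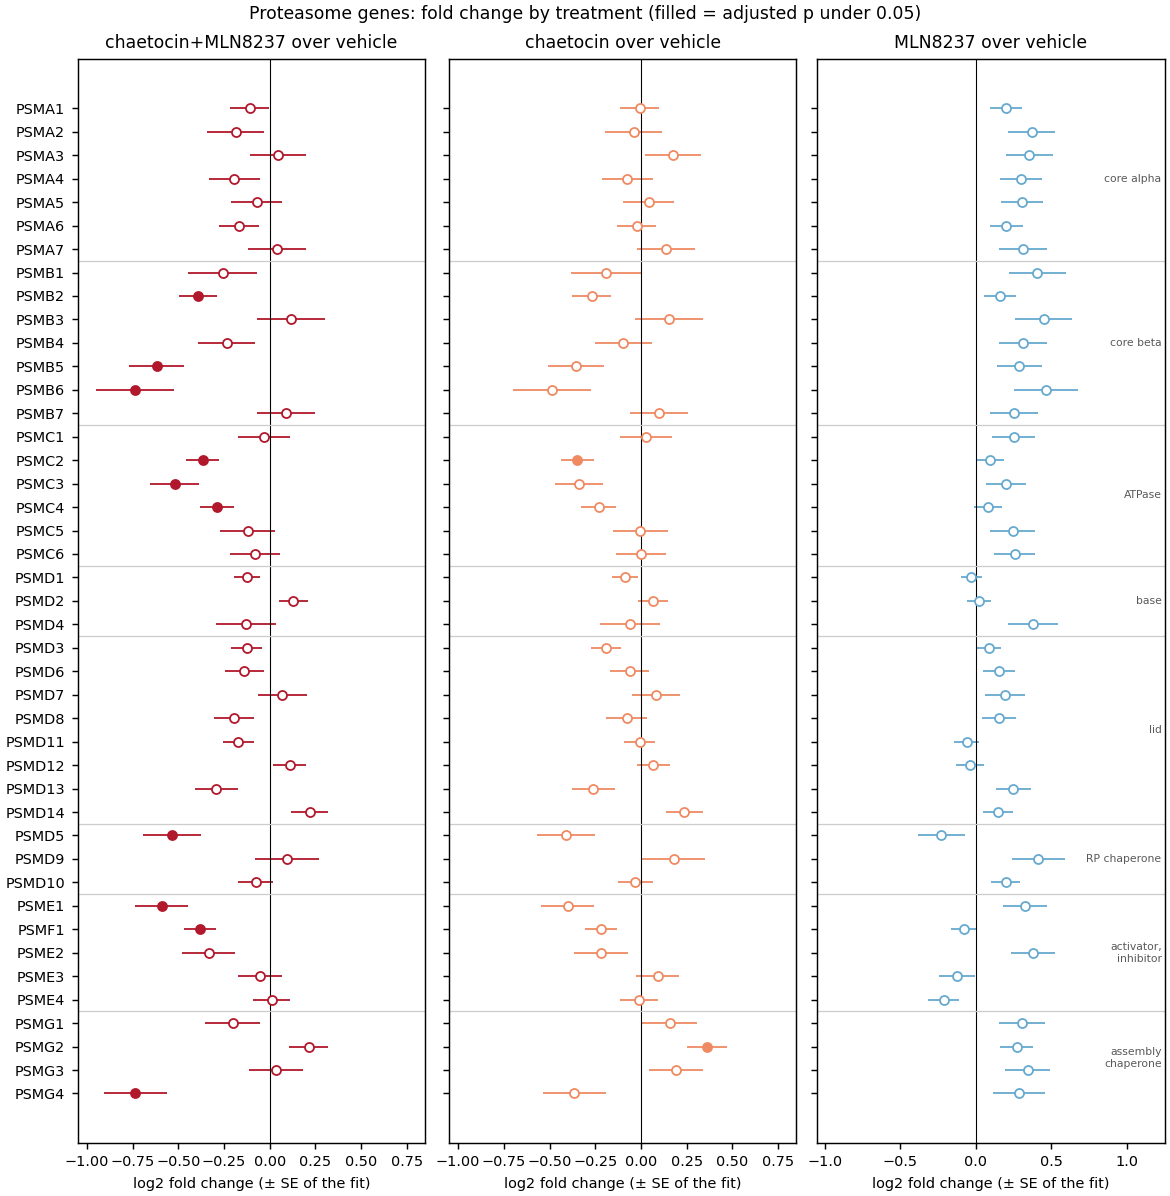
Log2 fold change of each of the 43 tested symbols against vehicle (horizontal axis, with the SE of the fit) with both compounds, chaetocin and MLN8237, from top to bottom by role; filled points have an adjusted p under 0.05. With both compounds 10 genes are filled on the negative side, down to -0.74 for PSMB6 and PSMG4; with chaetocin only PSMC2 and PSMG2 are filled, and with MLN8237 none.

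Chaetocin alone was compared with vehicle to see its own effect. The core assembly chaperone PSMG2 rose and the ATPase PSMC2 fell, and no other member passed (edgeR, 1 higher and 1 lower of 45). That is 4.44% of members, when 24.5% of all tested genes were called (12.6% higher, 11.9% lower). Medians were -0.03 over core rows, -0.06 over regulatory genes and 0.01 over all genes. Without overlap, 4 members lay above vehicle and 13 below, when 48% of all genes did not overlap (24.2% above, 23.9% below).

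PSMG2 (ENSG00000128789, chromosome 18, 12658737 to 12725739) had 49.0, 50.5 and 55.5 CPM with chaetocin and 42.0, 40.2 and 38.7 CPM with vehicle. Its log2 fold change was 0.36 ± 0.109 (edgeR adjusted p = 0.0289), and the groups did not overlap. It overlaps CEP76. Its partner in the chaperone dimer, PSMG1, had 66.5, 67.8 and 69.5 CPM with chaetocin and 66.4, 58.6 and 57.9 CPM with vehicle, which barely separated (0.16 ± 0.150, edgeR adjusted p = 0.495).

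PSMC2 had 151, 156 and 161 CPM with chaetocin and 209, 197 and 191 CPM with vehicle, a log2 fold change of -0.35 ± 0.0915 (edgeR adjusted p = 0.0143). Its mean was 154 ± 12.8 CPM with both compounds and 156 ± 4.89 CPM with chaetocin (SD, n = 3 each). The 10 genes that fell with both compounds all had negative fitted values with chaetocin too, each smaller in size than with both. Both comparisons use the same vehicle libraries, however. The 10 genes were also picked by their call with both compounds, which favours larger falls there, so this order of sizes is a description only. PSMB6 had 106, 109 and 129 CPM with chaetocin, below its vehicle range of 157 to 165 CPM (-0.49 ± 0.212, edgeR adjusted p = 0.116). PSMB5 had 128, 121 and 137 CPM, also below its vehicle range (-0.36 ± 0.152, edgeR adjusted p = 0.109). Neither passed the threshold.

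The ratio of PSMB6 to PSMB7 was 0.561 ± 0.0210 with chaetocin and 0.841 ± 0.0225 with vehicle (SD, n = 3 each), and that of PSMB5 to PSMB7 was 0.632 ± 0.0657 and 0.860 ± 0.0222. PSMG4 had 13.7, 14.05 and 13.2 CPM with chaetocin, PSMD5 55.4, 48.6 and 45.7 CPM, PSME1 49.4, 49.6 and 49.2 CPM and PSMF1 90.8, 86.9 and 96.0 CPM, each below all vehicle libraries and none passing (edgeR adjusted p = 0.148, 0.0760, 0.0620 and 0.0892). On the side of higher values, PSMD14 had 221, 218 and 248 CPM with chaetocin and 198, 191 and 194 CPM with vehicle (0.24 ± 0.0996, edgeR adjusted p = 0.103). The lid gene PSMD3 had 169.6, 174 and 186 CPM with chaetocin and 201, 199 and 204 CPM with vehicle, without overlap (-0.19 ± 0.0835, edgeR adjusted p = 0.118). The base assembly chaperone PSMD9 had 58.9, 65.0 and 75.0 CPM with chaetocin and 60.7, 55.9 and 59.0 CPM with vehicle, with overlap (0.18 ± 0.173, edgeR adjusted p = 0.502).

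PSMA3 had 113, 113 and 124 CPM with chaetocin and 115, 99.0 and 95.3 CPM with vehicle (0.18 ± 0.154, edgeR adjusted p = 0.454). PSMA7 had 263, 288 and 323 CPM with chaetocin and 287, 253 and 255 CPM with vehicle (0.14 ± 0.157, edgeR adjusted p = 0.584). Both overlapped through vehicle replicate 1, the highest vehicle library of each.

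The count of lower members with chaetocin was 11 when MLN8237 replicate 3, a library of neither group that enters the shared spread, filter and scaling, was left out, and these 11 included all 10 genes that fell with both compounds; it was 12 when only chaetocin and vehicle libraries were fitted. Neither call was made without chaetocin replicate 2 or without vehicle replicate 1 (0 higher, 0 lower), and that for PSMG2 was also absent without chaetocin replicate 3, vehicle replicate 2 or vehicle replicate 3.

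**Figure D3:**
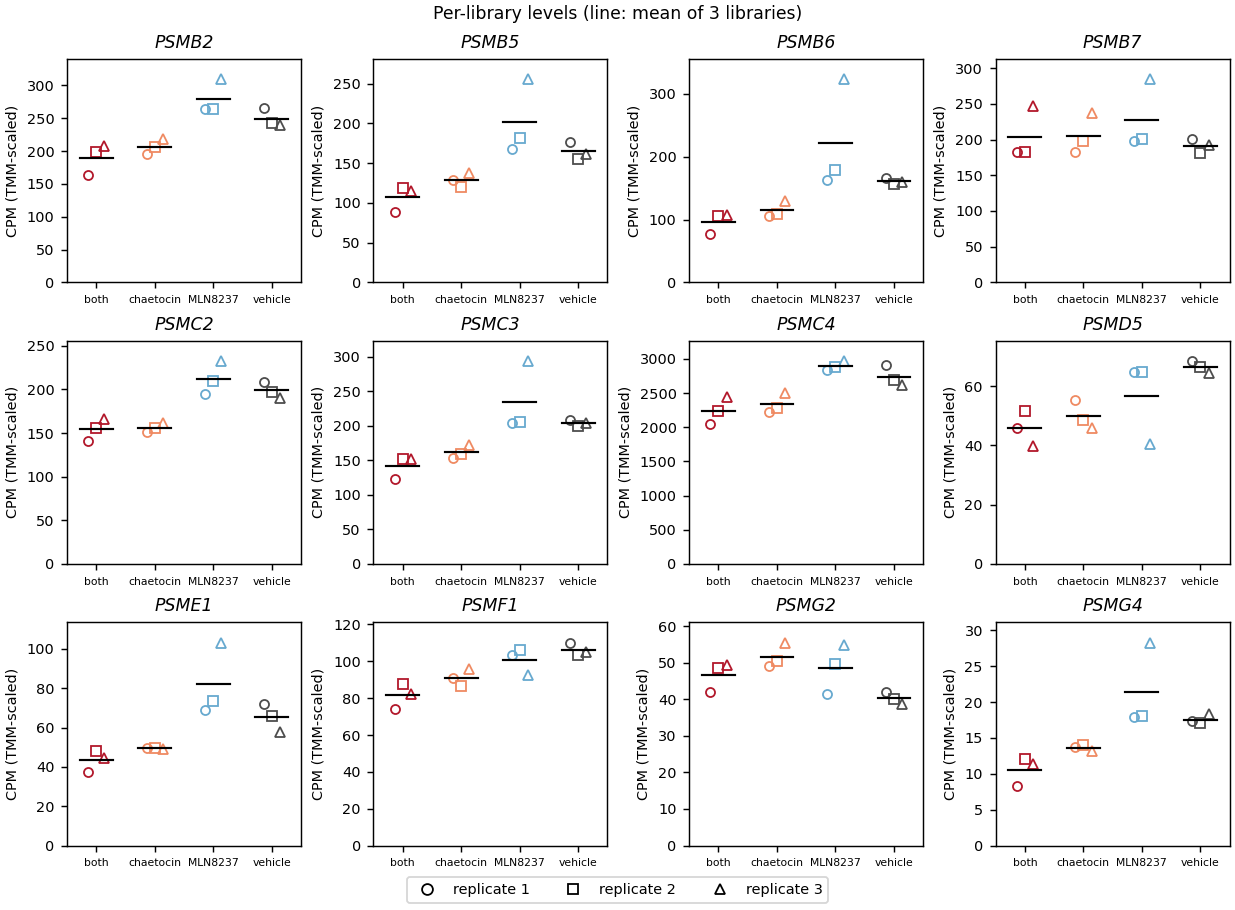
CPM (TMM-scaled, vertical axes from 0) of 12 proteasome genes in each library with both compounds (both), chaetocin, MLN8237 and vehicle; marker shapes give the replicate and lines the mean of 3 libraries. PSMB5 and PSMB6 are lower in all libraries with chaetocin than in those without it, PSMB7 overlaps between groups, and MLN8237 replicate 3 stands highest for PSMB6 at 323 CPM.

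MLN8237 alone was compared with vehicle to ask what inhibition of Aurora A does by itself. No member passed: 0 of 45 were called by edgeR, and 0 by DESeq2 and limma-voom, when edgeR called 1 of 22831 genes (0.00438%). An unadjusted edgeR p under 0.05 was found for 12 of 45 members and for 1938 of 22831 genes. Counted with 1 row a symbol, it was found for 11 of 43 members. The fitted values were positive for all 16 core rows, with a median of 0.31, and for 14 of 17 regulatory genes, with a median of 0.15. Over all genes the median was 0.00. Members without overlap numbered 4 above vehicle and 0 below, when 14% of all genes did not overlap (6.96% above, 7.06% below).

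The size of these positive values rested on replicate 3. Without it 39 of 45 fitted values were still positive, but such a count lay within the spread of vehicle libraries. Of 43 symbols, 35 were above the vehicle mean in each of MLN8237 replicates 1 and 2, and 38 in vehicle replicate 1. Relative to the vehicle mean, the median member stood at 0.03, 0.08 and 0.53 (log2) in MLN8237 replicates 1, 2 and 3, and at 0.07, -0.03 and -0.04 in vehicle replicates 1, 2 and 3. PSMB6, the member with the highest fitted value, had 163, 178 and 323 CPM with MLN8237 and 165, 157 and 161 CPM with vehicle (0.46 ± 0.212, edgeR adjusted p = 0.516). Without replicate 3 the medians were 0.08 over core rows and 0.03 over regulatory genes. PSMD5, with the lowest value, had 64.9, 64.6 and 40.6 CPM with MLN8237 and 68.5, 66.3 and 64.5 CPM with vehicle (-0.23 ± 0.158, edgeR adjusted p = 0.530), the lowest library again being replicate 3.

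In that library 38 of 43 symbols were higher than the mean of the other MLN8237 libraries, with medians of 0.59 over core genes and 0.20 over regulatory genes on the log2 scale of TMM-scaled CPM. Gene length moved with it: over all genes with a mean of at least 100 counts the median difference on that scale was 0.30 for genes under 2000 bases and -0.17 for genes over 5000 bases. The rank correlation of that difference with length was -0.37 over the 43 symbols and -0.34 over all those genes. Single members departed from this trend. Of the 3 highest fitted values with MLN8237, PSMB6 and PSMB3 have 1420 and 1179 bases and PSMD9 has 8778. The lowest core value was that of the PSMA1 row of 1221 bases. Chaetocin replicate 3 and combination replicate 3 differed from their groups the same way with smaller medians over members, 0.12 and 0.16. The part of length in these values was not tested.

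The balance of the particles was also read per library. The ratio of summed core CPM to summed regulatory CPM, without PSMC4, was 0.700, 0.772 and 0.745 with both compounds, 0.765, 0.781 and 0.801 with chaetocin, 0.810, 0.840 and 1.03 with MLN8237 and 0.835, 0.787 and 0.759 with vehicle. MLN8237 replicate 3 stood apart, and vehicle libraries overlapped with those of each treatment. Together the members took 0.921, 0.956 and 1.05% of all counts with both compounds, 0.950, 0.973 and 1.03% with chaetocin, 1.03, 1.05 and 1.203% with MLN8237 and 1.05, 0.989 and 0.974% with vehicle. By this share the libraries with both compounds overlapped those with vehicle.

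**Figure D4:**
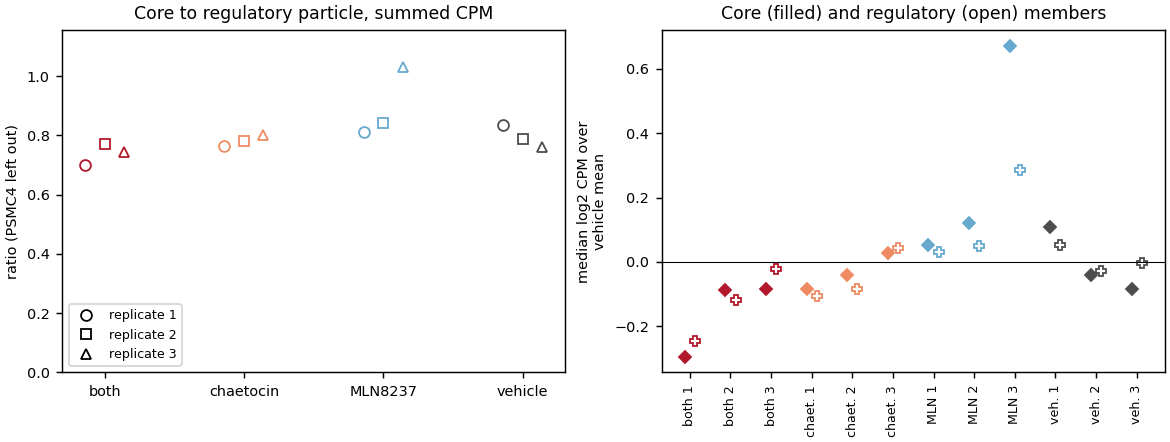
Left, ratio of summed core to summed regulatory CPM without PSMC4 in each library by group; right, median log2 CPM over the vehicle mean of core genes (filled) and regulatory genes (open) in each library. MLN8237 replicate 3 stands apart in both panels, at a ratio of 1.03 and a core median of 0.67, while combination replicate 1 has the lowest medians.

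The combination was then set against each compound to ask what the second compound adds. Against chaetocin, 0 of 45 members passed with edgeR, DESeq2 or limma-voom, when 0% of all genes passed with edgeR. An unadjusted edgeR p under 0.05 was found for 1 of 45 members and for 2677 of 22831 genes. DESeq2 called 296 of all genes and limma-voom 1. Fitted values were negative for 41 of 45 members with a median of -0.11. Of the 9392 genes of like level, 5965 had negative values, with a median of -0.05. The combination lay entirely below chaetocin for 10 members and above it for 0, when 18.7% of all genes did not overlap (9.54% above, 9.15% below). The fitted values were negative for 31 of 45 with library totals or without combination replicate 1. The lowest was PSMG4, with 8.29, 12.05 and 11.3 CPM with both compounds and 13.7, 14.05 and 13.2 CPM with chaetocin (-0.37 ± 0.174, edgeR adjusted p = 0.433). Whether adding MLN8237 to chaetocin changes these transcripts was thus not resolved by 3 libraries a group.

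Against MLN8237, 25 of 45 members fell and 0 rose with edgeR, 55.6% of members when 45.9% of all genes were called (23.3% higher, 22.7% lower). Counted with 1 row a symbol, 23 of 43 fell (53.5%). Among the 9392 genes at or above the lowest member's mean CPM, 51.9% were called, 1635 higher and 3237 lower. The combination lay entirely below MLN8237 for 28 members and above it for 1, when 51.3% of all genes did not overlap (26.8% above, 24.5% below). The falls held 12 of 16 core rows, 7 of 17 regulatory genes and 6 of 12 other genes, and included 9 of the 10 genes that fell against vehicle, PSMD5 being the exception. PSMB6 was lowest, with 76.9, 105 and 107 CPM with both compounds and 163, 178 and 323 CPM with MLN8237 (-1.20 ± 0.215, edgeR adjusted p = 0.000728). PSMG4 (-1.02 ± 0.175), PSME1 (-0.92 ± 0.146) and PSMB5 (-0.91 ± 0.153) came next (edgeR adjusted p = 0.000535, 0.000331 and 0.000478). Of the alpha rows, none of which passed against vehicle, 7 of 9 were called here, from -0.25 ± 0.0897 for the shorter PSMA1 row to -0.56 ± 0.158 for the PSMA2 row ENSG00000106588. That PSMA2 row had 209.5, 248.9 and 246 CPM with both compounds and 279, 296 and 460.1 CPM with MLN8237.

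Beta genes that passed here but not against vehicle were PSMB1 and PSMB4. PSMB1 had 223, 255 and 288 CPM with both compounds and 308, 333 and 573 CPM with MLN8237 (-0.66 ± 0.190, edgeR adjusted p = 0.0123). PSMB4 had 251.5, 290.4 and 318 CPM with both compounds and 346, 366.5 and 546 CPM with MLN8237 (-0.55 ± 0.158, edgeR adjusted p = 0.0126). In the regulatory particle the ubiquitin receptor PSMD4 had 182, 202 and 227 CPM with both compounds and 229.5, 251 and 387 CPM with MLN8237 (-0.51 ± 0.165, edgeR adjusted p = 0.0231). Each of these separated the groups, with MLN8237 replicate 3 far above the rest. The lid genes PSMD13, PSMD8 and PSMD6 and the chaperones PSMG1 and PSMD10 were also lower.

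MLN8237 replicate 3, high for core genes, is one side of this comparison. Without it 21 members were lower, with medians of -0.28 over core rows and -0.18 over regulatory genes in place of -0.43 and -0.29. The calls of both PSMA1 rows, PSMA5, PSMD4, PSMD6 and PSMD10 were then lost, while PSMD5 and PSMD11 were called lower. Without combination replicate 1 the count was 10, and in a fit of only these groups it was 9.

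The interaction (how far the log2 change of the combination departs from the added changes of the single compounds) was called for 0 of 45 members with edgeR, DESeq2 or limma-voom. Of all genes, 0% passed with edgeR. An unadjusted edgeR p under 0.05 was found for 12 of 45 members and for 3108 of 22831 genes. Counted with 1 row a symbol, it was found for 11 of 43 members. The interaction value was negative for 41 members, with medians of -0.44 over core rows and -0.21 over regulatory genes. Without MLN8237 replicate 3 these medians were -0.22 and -0.12. Of the 9392 genes of like level, 5410 had negative values with all libraries, with a median of -0.06. PSMG1 had the smallest unadjusted p among members (-0.67 ± 0.212, unadjusted p = 0.00769, edgeR adjusted p = 0.362).

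Genes that act with the proteasome were read from the same fits. The interferon-inducible subunit PSMB9, which can replace PSMB6, had 9.07, 8.32 and 8.13 CPM with both compounds, 9.22, 10.6 and 10.0 CPM with chaetocin, 20.1, 22.6 and 27.7 CPM with MLN8237 and 23.8, 18.6 and 16.2 CPM with vehicle. It fell both with the combination (-1.20 ± 0.150, edgeR adjusted p = 7.11e-05) and with chaetocin (-0.97 ± 0.149, edgeR adjusted p = 0.000601). PSMB8, which can replace PSMB5, fell with the combination (-0.45 ± 0.138, edgeR adjusted p = 0.0198) and had -0.28 ± 0.137 with chaetocin without passing. PSMB10, which can replace PSMB7, did not pass in either comparison.

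NFE2L1, the gene of the factor that drives proteasome genes, had 167, 170 and 148 CPM with both compounds, 181, 166 and 144 CPM with chaetocin, 259, 247 and 197 CPM with MLN8237 and 248.5, 277 and 283 CPM with vehicle. It fell with the combination (-0.74 ± 0.119, edgeR adjusted p = 0.000402) and with chaetocin (-0.72 ± 0.119, edgeR adjusted p = 0.000913). The genes that process its protein, DDI2, NGLY1 and VCP, were not called in the comparisons with vehicle. With the combination against MLN8237 all 4 genes, NFE2L1 included, were called, 2 higher and 2 lower. In that comparison 23.3% of all genes tested were higher and 22.7% lower. Against vehicle, NRF2 targets went the other way from NFE2L1. In that list 6 of 7 genes rose with the combination and 6 with chaetocin, NFE2L2 itself not passing. Of all genes tested, 20.1% were higher with the combination and 12.6% with chaetocin. HMOX1 (haem oxygenase) rose by 2.91 ± 0.280 and 3.13 ± 0.283 on the log2 scale and GCLM (glutathione synthesis) by 1.52 ± 0.0795 and 1.61 ± 0.0797 with the combination and with chaetocin, where the largest proteasome fall was -0.74. GCLC and SRXN1, also NRF2 targets, rose by 1.74 ± 0.108 and 1.98 ± 0.161 with the combination and by 1.83 ± 0.108 and 1.87 ± 0.160 with chaetocin.

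**Figure D5:**
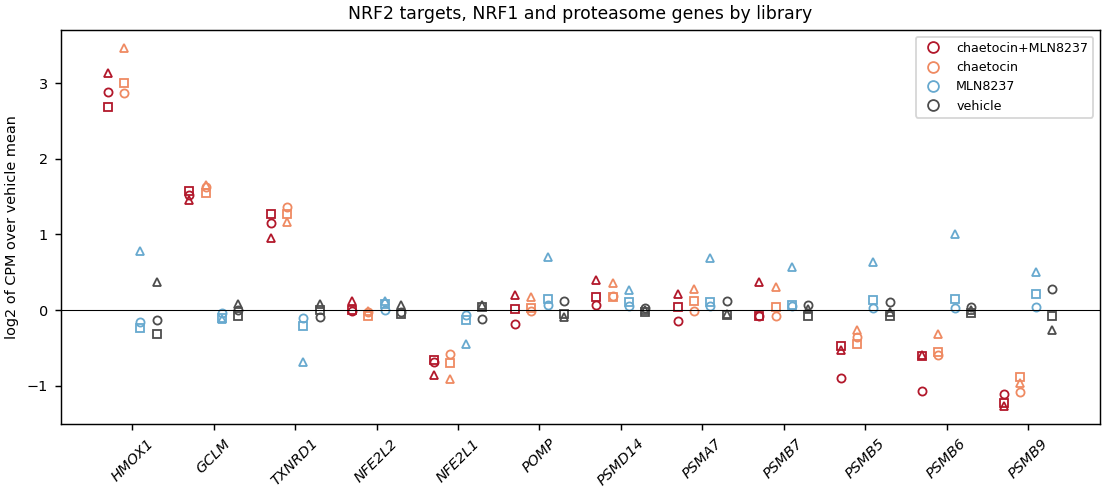
Log2 of CPM over the vehicle mean in each library (vertical axis) for NRF2 targets, NFE2L2, NFE2L1, POMP, PSMB9 and selected proteasome genes, by group, with marker shapes for the replicate as in the plot of CPM per gene. HMOX1, GCLM and TXNRD1 lie above the line in all libraries with chaetocin, NFE2L1, PSMB5, PSMB6 and PSMB9 below it, and POMP and PSMA7 around it.

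Of 10 genes for proteins bound to the proteasome or to its assembly, 3 rose and 1 fell with the combination and 3 rose and 0 fell with chaetocin. In these comparisons 38.5% and 24.5% of all genes tested were called. AKIRIN2, needed for import of the proteasome into the nucleus, had 68.9, 69.3 and 79.4 CPM with both compounds, 62.9, 65.0 and 71.0 CPM with chaetocin and 42.2, 40.0 and 42.2 CPM with vehicle (0.81 ± 0.0948 with both and 0.68 ± 0.0946 with chaetocin, edgeR adjusted p = 4.51e-05 and 0.000316). PAAF1, which binds the ATPases, rose by 0.41 ± 0.110 and 0.38 ± 0.110, and TXNL1, a thioredoxin of the regulatory particle, by 0.27 ± 0.0921 and 0.29 ± 0.0921 on the log2 scale. UCHL5, a deubiquitinase, fell with the combination (-0.29 ± 0.0863). The core maturation factor POMP and the subunits ADRM1 and SHFM1 did not pass, with values between -0.07 and 0.07.

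Of 17 genes of ubiquitin supply and delivery, 2 rose and 3 fell with the combination, and 2 rose and 1 fell with chaetocin. For this and the lists below, 20.1% of all genes tested were higher and 18.3% lower with the combination. With chaetocin these shares were 12.6% and 11.9%. ZFAND2A and ZFAND5, zinc finger proteins that bind the proteasome, rose by 1.42 ± 0.187 and 0.49 ± 0.0856 with both compounds and by 1.24 ± 0.187 and 0.54 ± 0.0856 with chaetocin on the log2 scale. The shuttle gene UBQLN2 fell in both (-0.48 ± 0.0871 and -0.36 ± 0.0869). The COP9 signalosome, whose architecture resembles that of the lid, had 5 of 9 genes lower with the combination and 2 with chaetocin, COPS4 by the most (-0.86 ± 0.116 and -0.59 ± 0.115). The CCT chaperonin, another large ring complex, had 1 of 8 genes lower with the combination (CCT3) and 1 higher with chaetocin (TCP1). Of these, the calls of PAAF1, TXNL1, UCHL5, CCT3 and TCP1, and that of PSMB8 above, were each lost when certain single libraries were left out.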

How the data were processed

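Per the labels, total RNA of PANC-1 cells was extracted with a column kit that includes digestion of DNA, and the submitters' processing notes name CASAVA 1.9, TopHat 12.0.6, HTSeq and hg19. Raw read counts per gene and RPKM were deposited by the authors in 1 table; the strand setting of the counting is not stated there. Whether the 3 libraries of a group are separate cultures is not labelled; the p-values rest on their spread alone, which may be technical.

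Counts were fitted with edgeR 4.0.16 in R 4.3.3 (filterByExpr by group, TMM factors, robust quasi-likelihood fit of 4 group means over 12 libraries, Benjamini-Hochberg adjustment over 22831 genes, adjusted p under 0.05). SE was the log2 fold change over the square root of F. CPM are TMM-scaled. Within groups no libraries agreed within sampling noise. Alternatives used DESeq2 1.42.0 and limma 3.58.1, other scalings and filters, a replicate block and left-out libraries. No outcome of a test of the fit on simulated data is given here.

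The members and all gene lists were chosen with earlier results of these data known. Values per library are given for the members with the smallest p of each role in the comparisons of both compounds and of chaetocin with vehicle, for the extremes of each comparison with vehicle, and for members called against MLN8237, of which some are only counted; from context lists, fixed genes and those with the smallest p with chaetocin are named. PSMB7, the ratios, UCHL5, CCT3 and other genes outside this rule were named after their values were seen.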

Additional observations from a re-analysis of the deposited data

How the results depend on the processing

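Of 262 counts of members called under the alternatives, 231 stayed within 1.5 times the main count and 31 did not; of 5625 fold changes of members none changed sign with a call, 88 lost a call and 99 gained one. With library totals in place of TMM factors, which moved the median of all genes by 0.14 in the comparison of both compounds with vehicle, 4 members were higher there in place of 0, 2 were higher with chaetocin in place of 1, and against MLN8237 4 were higher in place of 0 and 14 lower in place of 25. With the stricter filter 1 member was higher with both compounds against vehicle and 1 against MLN8237. With the treated libraries numbered 3 left out, 20 members were lower with both compounds in place of 10, and with chaetocin 2 were higher and 13 lower in place of 1 and 1. With a log2 change of at least 0.5 required, 6 were lower with both compounds, 0 higher and 0 lower with chaetocin, and 14 lower against MLN8237. When only the groups compared were fitted, 2 were higher and 12 lower with chaetocin, and 9 lower against MLN8237. For chaetocin, 2 were lower without a filter and 2 with DESeq2. Leaving out 1 library gave 5 to 14 lower members with both compounds, 0 to 1 higher and 0 to 11 lower with chaetocin, and 10 to 33 lower against MLN8237. PSMB5, PSME1 and PSMG4 kept their call with both compounds under every alternative run, and PSMC2 and PSMF1 under every one but the required change of 0.5. No member was called for MLN8237 against vehicle, both compounds against chaetocin or the interaction under any alternative run. With the replicate number as a block, 11 members were lower with both compounds, 2 were higher and 6 lower with chaetocin, and 28 were lower against MLN8237; the numbers share no stated culture or day, 9 of 18 same-numbered pairs correlated above 0.1, and 7 of 12 libraries correlated best with their own number. A fit of only the groups compared cannot be made for the interaction. The interaction's median over core rows was -0.44, -0.22 without MLN8237 replicate 3 and -0.21 with the treated libraries numbered 3 left out; the cause of these shifts was not tested.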

Other observations

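PSMC4, whose level stood apart from all other ATPase genes, lies on hg19 chromosome 19 from 40476912 to 40487348. Among neighbours with at least 1 RPKM in vehicle cells within 250000 bases, FBL (fibrillarin) had 1249 ± 74.4 RPKM and AKT2 (a kinase) 126 ± 3.65 RPKM (SD, n = 3 each), ranks 28 and 332 of all genes. The other neighbours had 1.59 to 69.1 RPKM.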
